A study of Mus musculus with 12 samples.

Results

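The genes described here were PARP family members and partners, of which several are known interferon-stimulated genes, namely Parp9, Parp10, Parp11, Parp12, Parp14, Dtx3l and Zc3hav1, together with Parp1, Parp3 and Parp8. The 10 members were chosen by their gene symbol from the 56748 mouse genes of the count table, each symbol matched 1 Ensembl identifier, and all 10 had enough counts to be tested. The cells were bone marrow-derived macrophages (BMDM) of C57BL/6J mice, differentiated with 20 ng/mL M-CSF and polarized to an M2-like state with 10 ng/mL IL4 for 48 hours, which all 4 conditions share. Untreated control cells then received plain medium, and rIFNβ cells received recombinant IFNβ at 1500 pg/mL. Ifnb1eGFP supernatant cells received medium conditioned by YUMM5.2 Ifnb1eGFP cells, a mouse melanoma line with a doxycycline (Dox)-inducible Ifnb1 transgene, diluted to the same IFNβ concentration. Cells of the eGFP supernatant condition received medium of YUMM5.2 eGFP control cells at the same dilution, and both donor lines had been treated with 1 µg/mL Dox for 72 hours. RNA was taken after 72 hours of exposure, with 3 libraries per condition, so the values describe a late state of the response and not its onset.

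ADP-ribosyltransferases of the PARP family move ADP-ribose from NAD onto proteins, either as long chains (Parp1, the sensor of DNA strand breaks) or as single units (Parp3, Parp8, Parp10, Parp11, Parp12 and Parp14). Several members belong to the antiviral programme that type I interferon switches on through its receptor. Parp9 pairs with the ubiquitin ligase Dtx3l, Parp14 is known as a co-activator of STAT6 downstream of IL4, and Zc3hav1 encodes ZAP (PARP13), which binds CpG-rich viral RNA and has no transferase activity of its own.

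Promoter sequence is shown for Parp11, whose windows differ in motif content, for Dtx3l, the member with the largest response, and for Parp1, the member with no detected response. Each window holds 250 bases before and 50 bases after a RefSeq start site on GRCm38.p6, written 5′ to 3′ on the strand of the gene. Capitals mark the letters of the core of the interferon-stimulated response element (ISRE, searched as TTTC and TTTC with any 2 bases between them) and of the STAT site (GAS, searched as TTCNNNGAA), both searched on both strands.
Parp11, upstream start, chr6:127446590-127446889, plus strand: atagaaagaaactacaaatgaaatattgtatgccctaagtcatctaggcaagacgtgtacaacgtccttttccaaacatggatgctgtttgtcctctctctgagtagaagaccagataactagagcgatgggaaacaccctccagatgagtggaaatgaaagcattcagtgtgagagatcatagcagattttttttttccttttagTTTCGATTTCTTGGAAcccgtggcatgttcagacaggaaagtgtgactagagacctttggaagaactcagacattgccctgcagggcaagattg
Parp11, downstream start, chr6:127453377-127453676, plus strand: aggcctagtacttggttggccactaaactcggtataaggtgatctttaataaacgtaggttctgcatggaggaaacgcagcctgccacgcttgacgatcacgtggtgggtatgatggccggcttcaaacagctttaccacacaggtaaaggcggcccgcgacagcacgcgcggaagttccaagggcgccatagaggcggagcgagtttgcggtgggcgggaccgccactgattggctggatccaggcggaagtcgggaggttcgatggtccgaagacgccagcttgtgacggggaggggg
Dtx3l, chr16:35938978-35939277, minus strand: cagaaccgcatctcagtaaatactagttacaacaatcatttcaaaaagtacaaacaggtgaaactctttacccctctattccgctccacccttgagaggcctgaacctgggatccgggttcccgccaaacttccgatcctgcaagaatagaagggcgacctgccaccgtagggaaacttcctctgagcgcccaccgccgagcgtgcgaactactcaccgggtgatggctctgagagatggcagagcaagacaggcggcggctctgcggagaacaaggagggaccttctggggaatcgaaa
Parp1, chr1:180568641-180568940, plus strand: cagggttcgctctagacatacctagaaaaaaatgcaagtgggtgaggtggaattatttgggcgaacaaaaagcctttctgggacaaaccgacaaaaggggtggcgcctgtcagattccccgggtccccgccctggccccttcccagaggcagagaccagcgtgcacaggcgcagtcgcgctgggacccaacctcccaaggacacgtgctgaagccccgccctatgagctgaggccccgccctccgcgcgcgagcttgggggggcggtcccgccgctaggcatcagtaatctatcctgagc

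The upstream Parp11 window held 1 match to each motif, TTTCGATTTC from base -44 to base -35 and TTCTTGGAA from base -37 to base -29 relative to the start, so that both matches share 3 letters. The RefSeq table gave windows for 7 members, 8 windows in all, and the other 7 windows held neither motif. Of 32851 windows of this length, 3.44% held the ISRE core and 8.3% the GAS letters. A match describes letters only, and a window without a match says nothing of the factor.

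On GRCm39 the genes Parp14 (chr16:35653231-35692003, minus strand), Dtx3l (chr16:35746881-35759521, minus strand) and Parp9 (chr16:35758840-35792980, plus strand) lie next to each other. Dtx3l and Parp9 stand head to head and share 458 exonic bases on opposite strands. Zc3hav1 (chr6:38282221-38332504, minus strand) and Parp12 (chr6:39063342-39095573, minus strand) lie on chromosome 6, as does Parp11 (chr6:127423483-127491198, plus strand). Parp1 lies at chr1:180396443-180431307, Parp3 at chr9:106347521-106354159, Parp8 at chr13:116987380-117162073 and Parp10 at chr15:76115374-76127648. Parp10 shares 205 exonic bases with Plec on the same strand, and Parp12 shares 267 with the antisense gene 4930599N23Rik. Libraries were stranded, but the strand setting of the counting is not given in the sources used here, so reads of such overlaps may be split between the genes.

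The libraries held between 31526004 and 45348410 counts, and the smallest count of a member in any library was 452, for Parp8. The unit of level is CPM, in which counts are scaled to a common library total after TMM adjustment. The macrophage markers moved in both directions. Adgre1 rose from between 1484 and 1603 CPM without IFNβ to between 1648 and 1836 CPM with it. Cd68 rose from between 1172 and 1391 CPM to between 1469 and 1868 CPM. The ranges of Csf1r (1023 to 1189 CPM over all libraries) and Mertk (102 to 178 CPM) overlapped. Lyz2 fell from between 8807 and 12828 CPM without IFNβ to between 3441 and 4322 CPM with it. Itgam fell from between 1424 and 1627 CPM to between 317 and 426 CPM. Of the 5 IL4 markers Mrc1 reached 609 to 839 CPM and Retnla 45.4 to 71.3 CPM over all libraries, and Chil3 lay between 63.2 and 81.5 CPM without IFNβ and between 106 and 129 CPM with it. Arg1, a defining gene of IL4-treated mouse macrophages, was under 1 CPM in every library (0.208 to 0.877 CPM) and Mgl2 lay between 2.60 and 5.68 CPM. Mitf, a melanoma marker that macrophages also express, fell from between 152 and 167 CPM without IFNβ to between 87.3 and 102 CPM with it. The other melanoma markers stayed at or under 0.732 CPM in every library. Of the fibroblast markers Dcn went from between 4.74 and 12.5 CPM without IFNβ to between 18.8 and 39.7 CPM with it and Pdgfra from between 0.877 and 3.24 CPM to between 3.53 and 7.41 CPM, while Col1a1 was lower with IFNβ (6.68 to 9.51 against 10.6 to 22.6 CPM), Col1a2 overlapped and the sum of the 4 ranged from 27.6 to 77.6 CPM. The neutrophil marker S100a8 went from between 4.19 and 5.72 CPM to between 0.089 and 0.531 CPM, and the other 4 neutrophil markers stayed at or under 0.253 CPM. The summed markers reached 0.0506 CPM for T cells, 1.45 for B cells (higher with IFNβ), 1.61 for dendritic cells and 0.585 for NK cells (both lower with IFNβ), and 0 markers were absent from all 12 libraries. In the bulk RNA, a change in the mix of cells and a change of RNA per cell cannot be told apart, and the part of the marker shifts in the results below was not tested.

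**Figure D1:**
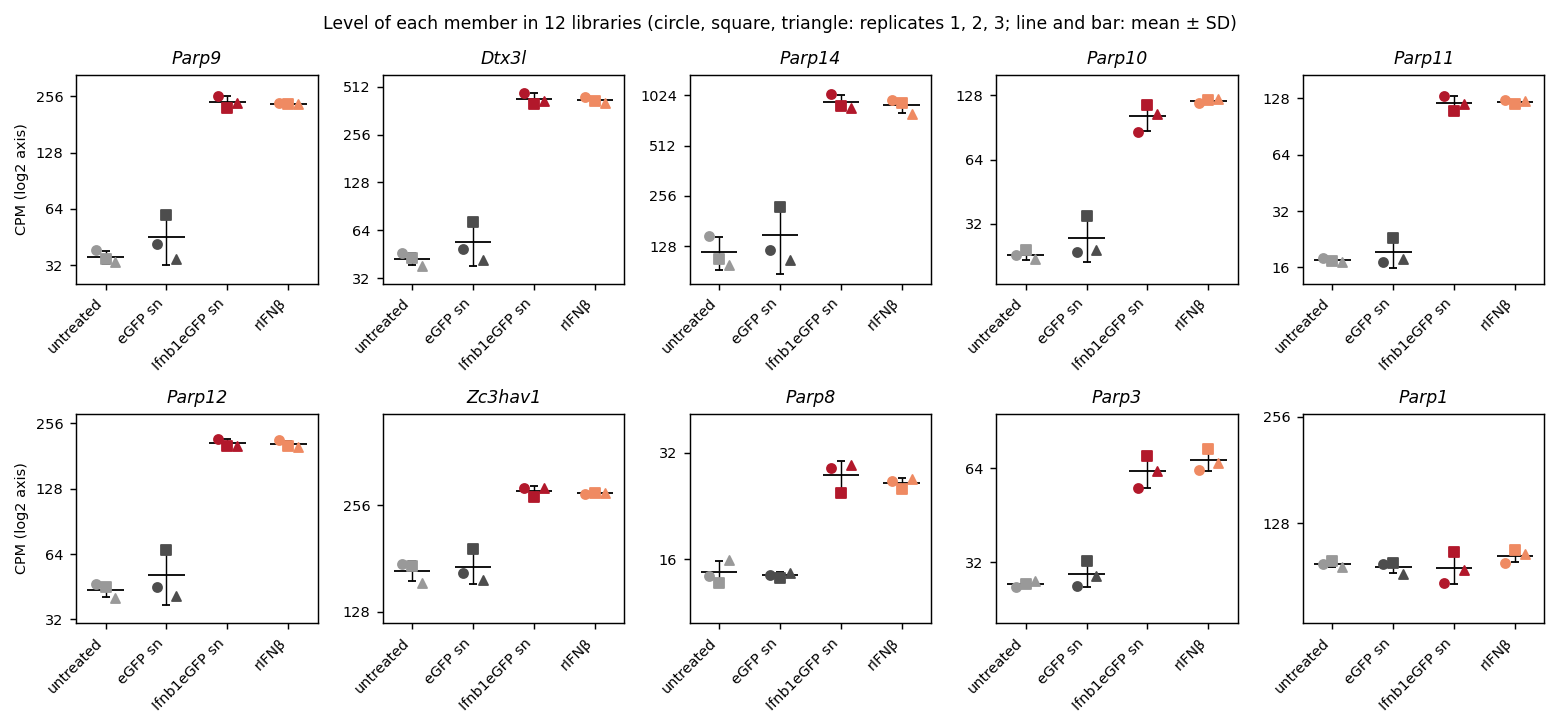
Level of each member in CPM (log2 axis) in the 12 libraries, 1 panel per gene, with replicates 1, 2 and 3 of a condition as circle, square and triangle and the mean ± SD of 3 libraries as line and bar (sn, supernatant). In 9 panels all 6 libraries with IFNβ lie above the 6 without it, and in the Parp1 panel they overlap.

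To ask how these genes respond to tumoral IFNβ and to rIFNβ, Ifnb1eGFP supernatant was compared with eGFP supernatant, and rIFNβ with untreated control. In each comparison 9 of 10 members rose and 0 fell. A rise or fall here means an adjusted p of 0.05 or less in the quasi-likelihood test of edgeR, adjusted by Benjamini-Hochberg over 15033 genes. The same threshold was passed by 30.1% of all genes tested in the upward direction in the supernatant comparison and by 30.7% in the rIFNβ comparison. Under the stricter rule of the study's methods, with a log2 fold change of 2 or more and an adjusted p of 0.01 or less, 5 and 6 members were higher with edgeR, against 2.77% and 2.99% of all genes. The study applied this rule with DESeq2. With that tool Parp12 missed the fold threshold in the supernatant comparison (log2 1.99, against 2.02 with edgeR). With a log2 fold change of 1 or more and an adjusted p of 0.05 or less, 7 members were higher in each comparison, against 7.21% and 7.74% of all genes. The median log2 fold change of the members was 1.96 and 2.32, and that of all genes 0.03 and 0.04. For those 9 members each group with IFNβ lay above its control group without overlap, which was so for 32.4% of all genes in the supernatant comparison and for 36.4% in the rIFNβ comparison.

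Dtx3l, the ubiquitin ligase that binds Parp9, had the largest response. In untreated control cells it was measured at 46.3, 42.7 and 38.5 CPM, and in eGFP supernatant at 49.1, 72.6 and 41.8 CPM. In Ifnb1eGFP supernatant the values were 469, 399.96 and 418 CPM, and with rIFNβ 439, 414 and 404 CPM. All 6 IFNβ libraries were thus far above the other 6, and the library of eGFP supernatant replicate 2 was the highest of those without IFNβ. Dtx3l was 7.87-fold higher in Ifnb1eGFP than in eGFP supernatant (log2 fold change 2.98, SE 0.17, adjusted p = 6.3e-08, edgeR) and 9.87-fold higher with rIFNβ than without (3.30, SE 0.17, adjusted p = 2.75e-08, edgeR).

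Parp9, a macrodomain protein that reads ADP-ribose, was measured at 38.4, 34.5 and 33.1 CPM in untreated control cells and at 41.5, 59.7 and 34.5 CPM in eGFP supernatant. Its levels in Ifnb1eGFP supernatant were 258, 222 and 237 CPM, and with rIFNβ 236, 232 and 232 CPM. The rIFNβ libraries lay within a few CPM of each other, and replicate 2 of the eGFP supernatant again stood above its group. The rise was 5.28-fold with tumoral IFNβ (log2 2.40, SE 0.16, adjusted p = 2.04e-07, edgeR) and 6.60-fold with rIFNβ (log2 2.72, SE 0.16, adjusted p = 7.39e-08, edgeR).

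Parp14 had the highest CPM of the members with IFNβ and the widest spread between libraries. Untreated control libraries held 148, 107 and 99.0 CPM, and eGFP supernatant libraries 121, 219 and 106 CPM. With Ifnb1eGFP supernatant Parp14 reached 1049.7, 888 and 861 CPM, and with rIFNβ 956, 919 and 797 CPM. The lowest IFNβ library was still above the highest library without IFNβ. Parp14 rose 6.27-fold in the supernatant comparison (log2 2.65, SE 0.25, adjusted p = 4.06e-06, edgeR) and 7.54-fold with rIFNβ (log2 2.92, SE 0.26, adjusted p = 1.86e-06, edgeR). Without eGFP supernatant replicate 2 the log2 fold change in the supernatant comparison was 3.04 for Parp14, 3.24 for Dtx3l and 2.65 for Parp9.

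Parp11, a transferase that has been linked to turnover of the type I interferon receptor, was among the lower members without IFNβ, at 18.0, 17.3 and 17.1 CPM in untreated control cells and 17.0, 23.1 and 17.7 CPM in eGFP supernatant. It reached 132, 109.7 and 119.6 CPM in Ifnb1eGFP supernatant and 125, 119 and 123 CPM with rIFNβ. Apart from eGFP supernatant replicate 2 its groups were tight, and its tests gave the smallest adjusted p of the 10 members. Parp11 was 6.25-fold higher with tumoral IFNβ (log2 2.64, SE 0.11, adjusted p = 3.95e-09, edgeR) and 6.996-fold higher with rIFNβ (log2 2.81, SE 0.11, adjusted p = 2.37e-09, edgeR).

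Parp12, a CCCH zinc finger transferase of the Golgi and stress granules, lay between 40.0 and 46.4 CPM in untreated control cells and at 45.3, 66.8 and 41.2 CPM in eGFP supernatant. Its range was 201 to 218 CPM in Ifnb1eGFP supernatant and 199 to 214 CPM with rIFNβ. Both IFNβ groups covered nearly the same range and stayed clear of the other libraries. The log2 fold changes were 2.02 (SE 0.15, adjusted p = 4.12e-07, edgeR) and 2.23 (SE 0.15, adjusted p = 1.81e-07, edgeR).

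Parp10 was measured at 22.7, 23.97 and 21.7 CPM in untreated control cells and at 23.5, 34.7 and 24.1 CPM in eGFP supernatant. Ifnb1eGFP supernatant gave 86.5, 116 and 104 CPM, and rIFNβ 118, 122 and 123 CPM. Every Ifnb1eGFP library was below every rIFNβ library, with replicate 1 the lowest. The log2 fold change was 1.90 in the supernatant comparison (SE 0.14, adjusted p = 5.5e-07, edgeR) and 2.41 with rIFNβ (SE 0.15, adjusted p = 8.5e-08, edgeR).

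Zc3hav1, Parp8 and Parp3 responded less. Zc3hav1 was abundant without IFNβ, with 154 to 175 CPM in untreated control cells and 157 to 192 CPM in eGFP supernatant, and rose to between 269 and 287 CPM in Ifnb1eGFP supernatant and between 275 and 277 CPM with rIFNβ. Its rise was 1.64-fold (log2 0.71, SE 0.07, adjusted p = 6.6e-06, edgeR) and 1.65-fold (log2 0.73, SE 0.07, adjusted p = 5.3e-06, edgeR). Parp3, which acts at DNA breaks, went from between 26.6 and 32.4 CPM over the libraries without IFNβ to between 55.3 and 73.4 CPM over those with it, a log2 fold change of 1.09 in the supernatant comparison (SE 0.09, adjusted p = 1.4e-06, edgeR) and of 1.31 with rIFNβ (SE 0.09, adjusted p = 2.98e-07, edgeR). Parp8, a little studied transferase, went from between 13.8 and 15.99 CPM to between 24.7 and 29.6 CPM, with log2 fold changes of 0.94 (SE 0.08, adjusted p = 1.1e-06, edgeR) and 0.84 (SE 0.08, adjusted p = 2.8e-06, edgeR). None of these 3 genes had overlapping groups in either comparison.

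Parp1 was measured at 98.1, 100.0 and 96.5 CPM in untreated control cells, at 98.5, 99.0 and 92.3 CPM in eGFP supernatant, at 87.0, 106 and 94.5 CPM in Ifnb1eGFP supernatant and at 98.8, 107 and 105 CPM with rIFNβ. All 4 groups overlapped. The fold was 0.994 in the supernatant comparison (95% interval 0.898 to 1.10, adjusted p = 0.917, edgeR) and 1.06 with rIFNβ (95% interval 0.953 to 1.17, adjusted p = 0.352, edgeR). A change of Parp1 was thus not seen with 3 libraries per condition, and changes within these intervals remain possible.

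**Figure D2:**
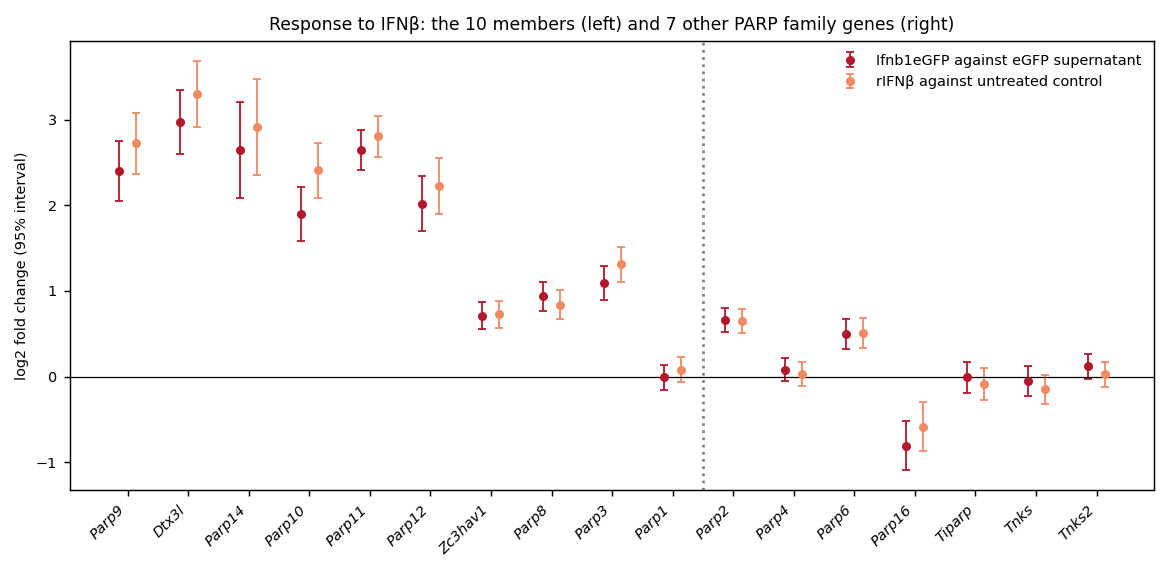
Log2 fold change with its 95% interval for the 10 members (left of the dotted line) and 7 other PARP family genes (right), for Ifnb1eGFP against eGFP supernatant and rIFNβ against untreated control. The 6 members from Parp9 to Parp12 lie at 1.90 or above in both comparisons, whereas the other PARP family genes lie between -0.81 and 0.66.

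The 10 members together held 544 to 814 CPM in the libraries without IFNβ and 2352 to 2669 CPM in those with it. Parp14 alone made up 18.2% to 27.0% of that sum without IFNβ and 33.9% to 39.3% with it. Per kilobase of merged exons, which allows genes of different length to be compared, Zc3hav1 was the highest member in untreated control cells (16.3 ± 1.07 CPM per kb, SD, n = 3) and by its mean in eGFP supernatant (16.8 ± 1.80). In eGFP supernatant Parp14 lay at 15.5 ± 6.42, a gap below its SD, and in replicate 2 it stood above Zc3hav1 (22.9 against 18.8 CPM per kb). Parp1 and Parp14 followed at 13.5 ± 0.25 and 12.3 ± 2.74 CPM per kb in untreated control cells, and these 2 neighbours in the order differed by less than the SD of Parp14. With IFNβ Parp14 stood at the top (97.4 ± 10.6 CPM per kb in Ifnb1eGFP supernatant and 93.0 ± 8.72 with rIFNβ), followed by Dtx3l at 74.9 ± 6.26 and 73.2 ± 3.16. Parp12 (47.6 ± 2.18 and 47.0 ± 1.91) and Parp9 (47.5 ± 3.598 and 46.4 ± 0.54) came next and did not differ beyond their SD. Parp1 stood at rank 2 of 10 in untreated control cells and at rank 8 with IFNβ (rank 9 per kb of the longest transcript) while its own level per kb stayed between 13.2 and 14.2 in the condition means. Parp8 had the lowest level per kb in every condition, from 1.12 ± 0.02 to 2.16 ± 0.21.

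**Figure D3:**
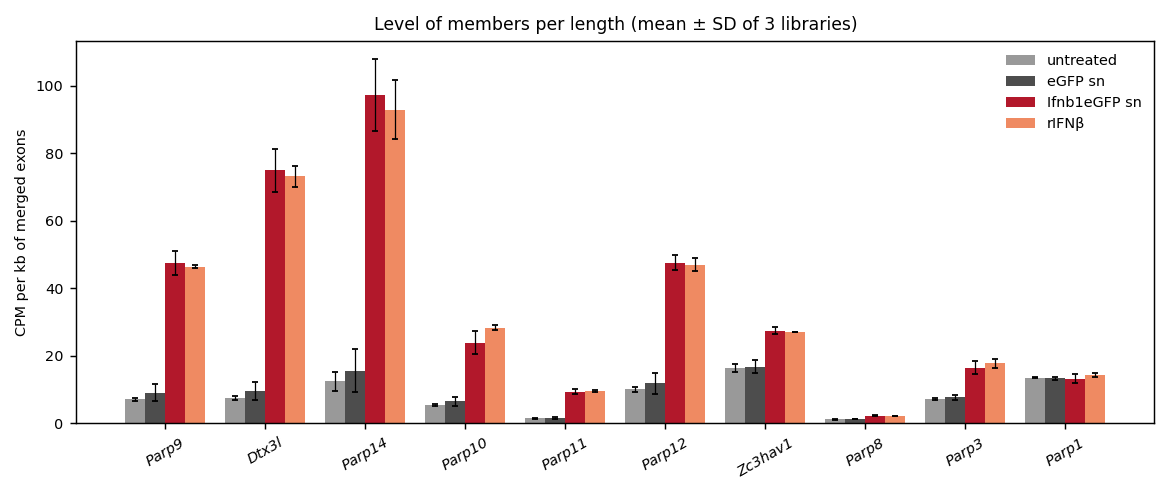
Mean level of each member in CPM per kb of merged exons, with SD over 3 libraries as bars and the 4 conditions as colours (sn, supernatant). Parp14 and Dtx3l rise above Zc3hav1 and Parp1 in both conditions with IFNβ.

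Ratios of neighbouring or related members within a library do not depend on the scaling between libraries. There were 1.16 to 1.24 Dtx3l counts for each Parp9 count in the 6 libraries without IFNβ and 1.75 to 1.86 in the 6 with it. These ranges did not overlap, so the counts of the head-to-head pair rose unequally. The log2 ratio was higher by 0.58 with IFNβ (two-sided exact permutation test within supernatant state over 400 relabellings, p = 0.005, the smallest this design allows, and 0.0075 adjusted over 3 ratios). Reads of the 458 exonic bases that both genes share may be split between them, and the part of this in the ratio was not tested. For Zc3hav1 and Parp12, which both encode CCCH zinc fingers, the ratio was 2.87 to 3.85 without IFNβ and 1.28 to 1.43 with it. The log2 ratio fell by 1.41 (exact permutation p = 0.005, adjusted 0.0075), so Parp12 came closer to Zc3hav1 in counts, which are not divided by length. Per kb of merged exons the order of the means was reversed. Parp12 lay below Zc3hav1 in untreated control cells (10.1 against 16.3 CPM per kb). It lay above Zc3hav1 in Ifnb1eGFP supernatant (47.6 against 27.5) and with rIFNβ (47.0 against 27.0). Per kb of the longest transcript these gaps were smaller (58.4 against 49.3 and 57.8 against 48.6 CPM per kb). The ratio of Parp14 to Parp9 was 2.91 to 3.85 without IFNβ and 3.44 to 4.07 with it, a log2 difference of 0.25 (exact permutation p = 0.03, adjusted 0.03) with overlapping ranges. This last call was lost, at an exact permutation p of 0.06, without untreated control replicate 2 (0.22), untreated control replicate 3 (0.21), rIFNβ replicate 1 (0.22) or rIFNβ replicate 2 (0.23).

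**Figure D4:**
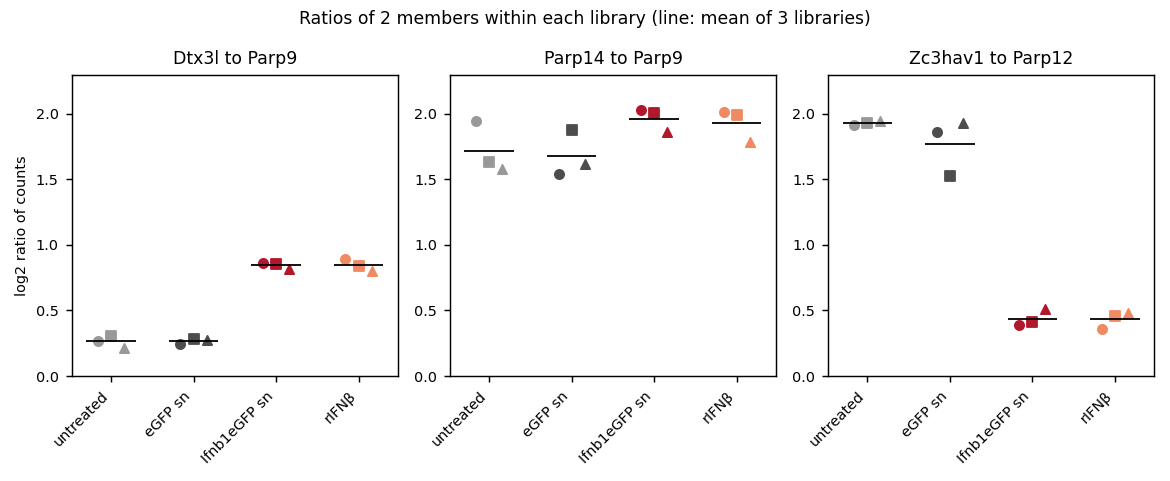
Log2 ratio of the counts of 2 members within each library, by condition, with replicates 1, 2 and 3 as circle, square and triangle and the mean of 3 libraries as a line (sn, supernatant). Dtx3l to Parp9 separates the libraries with IFNβ upward (0.80 to 0.89 against 0.22 to 0.31), Zc3hav1 to Parp12 separates them downward, and Parp14 to Parp9 overlaps.

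Whether the source of IFNβ mattered was asked by comparing Ifnb1eGFP supernatant with rIFNβ at the same IFNβ concentration. Of the 10 members 0 were called by edgeR, 0 by DESeq2 and 0 had an unadjusted p under 0.05. Of all genes 0.16% were called by edgeR and 8.57% had an unadjusted p under 0.05. The log2 differences ran from -0.24 for Parp10 to 0.08 for Parp8. Parp10 was the member whose groups did not overlap, being lower in every Ifnb1eGFP library, as were 4.58% of all genes (95% interval of its log2 difference -0.54 to 0.05, adjusted p = 0.625, edgeR). The widest interval was that of Parp14, from -0.46 to 0.59, and that of Parp1 ran from -0.26 to 0.04. With 3 libraries per condition, differences within these intervals remain possible.

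Supernatant without the Ifnb1 transgene was compared with plain medium to see what the conditioned medium does to these genes. Again 0 of 10 members were called by edgeR or DESeq2, against 0.299% of all genes with edgeR, while 2 had an unadjusted p under 0.05, as did 8% of all genes. These were Parp9 (log2 0.36, adjusted p = 0.599, edgeR) and Dtx3l (log2 0.36, adjusted p = 0.62, edgeR). The 3 eGFP supernatant libraries were not alike in these genes. Replicate 2 had the highest value of the 6 libraries without IFNβ for 8 of 10 members, and its Parp14 level was 1.93 times the mean of the other eGFP supernatant libraries. The share of all genes that were highest in that library is not given here, so the pattern cannot be called particular to these members. Without that library the log2 difference was 0.11 for Parp9, 0.10 for Dtx3l, -0.06 for Parp14 and -0.02 for Parp12. For Parp1 and Parp8 the log2 differences over all 3 libraries were -0.02 and -0.03.

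The interaction, which asks whether IFNβ acted differently in tumor supernatant and in plain medium, was called for 0 of 10 members by edgeR and by DESeq2, as for 0% of all genes with edgeR. At an unadjusted p under 0.05, where 4.4% of all genes stood, was 1 member, Parp10, with a response smaller by 0.51 on the log2 scale in the supernatant comparison (95% interval -0.94 to -0.08, adjusted p = 0.926, edgeR). Without eGFP supernatant replicate 2 that log2 difference was -0.30.

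The 7 other PARP family genes gave smaller changes. In both IFNβ comparisons 2 of 7 rose and 1 fell, while over all genes tested 30.1% and 30.7% rose and 25% and 24.6% fell. Parp2, the close relative of Parp1 in strand break repair, rose by 0.66 and 0.65 on the log2 scale (adjusted p = 4.5e-06 and 4.9e-06, edgeR), and Parp6 by 0.49 and 0.51 (adjusted p = 0.00026 and 0.00021, edgeR). Parp16, a transferase of the endoplasmic reticulum, fell by 0.81 and 0.58 (adjusted p = 0.00025 and 0.0025, edgeR). Tiparp, Parp4 and both tankyrases did not pass the test. The median log2 fold change of the 7 was 0.08 and 0.03.

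Genes that remove, read or build on ADP-ribose moved in both directions, as genes at large did. Of 6 erasers 2 rose and 1 fell in each comparison, while over all genes tested 30.1% and 30.7% rose and 25% and 24.6% fell. Oard1, which strips ADP-ribose from proteins, rose by 0.47 and 0.29 (adjusted p = 7.3e-05 and 0.0028, edgeR), and Macrod1, a macrodomain hydrolase, fell by 0.67 and 0.63 (adjusted p = 0.003 and 0.0043, edgeR). Adprh was called with rIFNβ (0.40, adjusted p = 0.0322, edgeR) and stood at 0.27 in the supernatant comparison (adjusted p = 0.124, edgeR).
Of 12 readers, cofactors and Deltex ligases, 3 rose and 4 fell in the supernatant comparison and 2 rose and 3 fell with rIFNβ. The shares of all genes were 30.1% and 30.7% that rose and 25% and 24.6% that fell. Rnf114, a ubiquitin ligase that binds ADP-ribosylated targets, rose by 1.45 and 1.61 (adjusted p = 8.2e-08 and 3.2e-08, edgeR) and Rnf146 by 0.41 and 0.37. In contrast to Dtx3l, its relatives Dtx1 and Dtx3 fell, Dtx1 by 3.40 and 2.59 (adjusted p = 0.00021 and 0.00079, edgeR) and Dtx3 by 1.13 and 0.82 (adjusted p = 1.1e-05 and 0.00015, edgeR). Dtx1 was low throughout, with means of 0.706 CPM in eGFP supernatant and 0.0653 CPM in Ifnb1eGFP supernatant and as few as 1 count in a library of the latter. Dtx4 and Dtx2 are named after their values were seen. Dtx4 fell by 0.83 and 1.06, and Dtx2 stood at 0.03 and 0.22 and did not pass the test (adjusted p = 0.894 and 0.319, edgeR).

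NAD is the substrate of every active PARP. Of 10 listed genes of NAD synthesis 9 were tested, and 5 rose and 0 fell in each comparison. Over all genes tested 30.1% and 30.7% rose and 25% and 24.6% fell. Nampt, the rate-limiting enzyme of NAD salvage, rose by 1.29 and 1.43 (adjusted p = 4.8e-07 and 1.9e-07, edgeR), and Naprt by 0.70 and 1.06 (adjusted p = 0.0109 and 0.00078, edgeR). Among 10 other NAD consumers 5 rose and 1 fell in the supernatant comparison, and 7 rose and 0 fell with rIFNβ, beside the same shares of all genes. Bst1, an NAD glycohydrolase of the cell surface, rose by 0.98 and 0.91 (adjusted p = 1.8e-06 and 3.1e-06, edgeR). The deacylase Sirt6 was called with rIFNβ (0.62, adjusted p = 0.0437, edgeR; 0.24 in the supernatant comparison, adjusted p = 0.406), and Sirt2 fell by 0.39 in the supernatant comparison (adjusted p = 0.0056, edgeR; -0.18 with rIFNβ, adjusted p = 0.149).

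Cofactors of ZAP, the Zc3hav1 product, rose in 7 of 11 cases in each comparison, and 0 fell. Over all genes tested 30.1% and 30.7% rose and 25% and 24.6% fell. Trim25, a ubiquitin ligase needed for its antiviral activity, rose by 1.34 and 1.53 (adjusted p = 4.9e-07 and 1.5e-07, edgeR), and the decapping enzyme Dcp2 by 1.504 and 1.44 (adjusted p = 8.8e-06 and 1.3e-05, edgeR). Of 7 genes of strand break repair, the classical setting of Parp1 and Parp3, 3 rose and 0 fell in each comparison, beside the same shares of all genes. DNA polymerase Polb rose by 0.96 and 0.97 (adjusted p = 6.4e-08 and 5.6e-08, edgeR) and Aptx by 0.52 and 0.53 (adjusted p = 1.7e-05 and 1.6e-05, edgeR). In the comparison of the IFNβ sources and in that of eGFP supernatant with untreated control, edgeR called 0 genes of these lists. DESeq2 called 0 and 1.

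**Figure D5:**
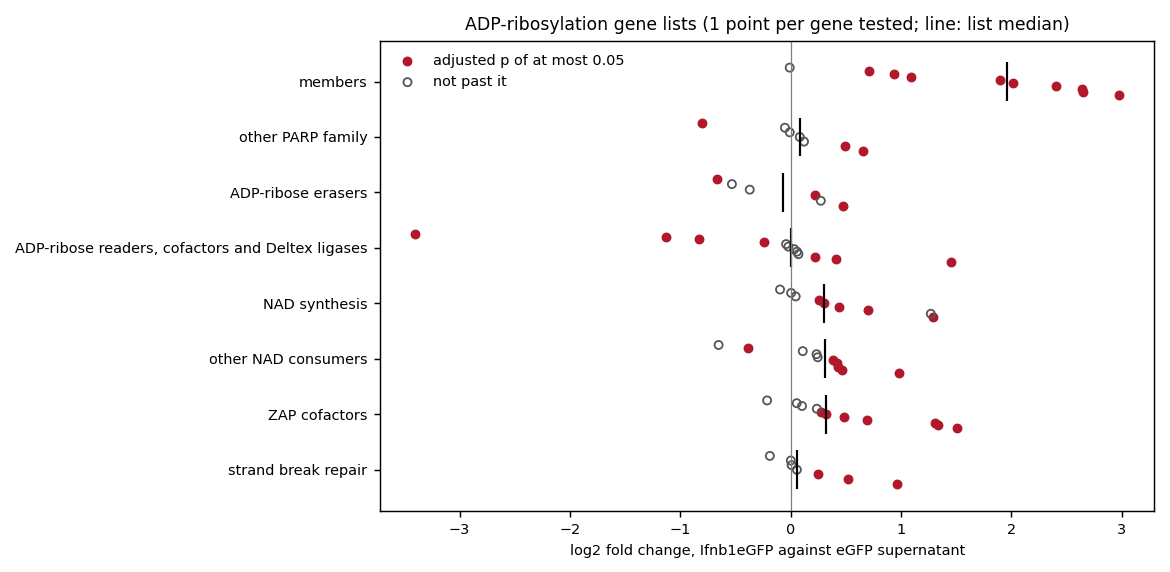
Log2 fold change of Ifnb1eGFP against eGFP supernatant (x axis) for each gene tested of the member list and of 7 related lists (y axis), filled where the adjusted p was at most 0.05, with a line at the list median. The members have a median of 1.96, and the medians of the other 7 lists lie between -0.07 and 0.32.

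Genes beside the members on the chromosome did not share their rise as a group. Of 47 other genes tested that start within 200 kb of a member, 11 rose and 12 fell in the supernatant comparison and 9 rose and 11 fell with rIFNβ. All genes tested gave shares of 30.1% and 30.7% that rose and 25% and 24.6% that fell. The median log2 fold change of the 47 neighbours was -0.05 and 0.02. The largest rises were those of Gm49730 (log2 3.71 and 2.73), which shares 110 exonic bases with Parp14 on the same strand, and 4930599N23Rik (2.32 and 2.61), which lies antisense to Parp12, so reads of the members may be assigned in part to these 2 genes. Their levels were low, at 0.365 ± 0.034 and 1.26 ± 0.15 CPM in Ifnb1eGFP supernatant (SD, n = 3). The largest falls were those of Stum (log2 -4.21 and -3.24, near Parp1, at 0.788 ± 0.050 CPM in eGFP supernatant) and Emb (-1.61 and -1.82, near Parp8, at 78.3 ± 4.09 CPM in eGFP supernatant). Around Parp14, Dtx3l and Parp9 lay 6 further genes tested besides Gm49730, all named here outside the rule. Kpna1 (-0.27 and -0.33), Wdr5b (-0.69 and -0.52) and Fam162a (-0.47 and -0.52) fell in both comparisons. Hspbap1 rose in the supernatant comparison (0.35, adjusted p = 0.0345, edgeR) and stood at 0.30 with rIFNβ (adjusted p = 0.066, edgeR), and Slc49a4 (-0.06 and 0.02) and Mix23 (-0.05 and 0.09) did not pass the test.

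The members' profiles over the 12 libraries were set beside those of all genes tested, as the root mean square difference of log2 CPM after centring each gene on its untreated control mean. This is a description in which all genes share the same libraries and the same division by IFNβ. Closest to Dtx3l were Nt5c3 (0.07), the RNA sensor Ifih1 (0.10) and Sp100 (0.12). The genes nearest to Parp9 were Pnp (0.08), Slfn2 (0.09) and Epsti1 (0.09). Parp14 had Slfn5 (0.13), Epsti1 (0.16) and Oas1a (0.16), Parp11 had Il15 (0.09), Cd274 (0.09) and Sp140 (0.10), and Parp12 had Rnf144b (0.07), Mitd1 (0.09) and Ifi207 (0.09). For Parp10 these were Batf2 (0.09), Nod2 (0.14) and Pml (0.15). The members of smaller response lay beside other genes, Zc3hav1 beside Zcchc2, Ddx24 and Milr1 (each 0.06), Parp8 beside Smad3, Map4k3 and Ctss (each 0.07) and Parp3 beside Ccdc86 (0.08), Urm1 (0.09) and Nmral1 (0.09). Among the members themselves, Parp9 and Parp11 were closest (0.14), followed by Parp8 and Zc3hav1 (0.16) and by Parp10 and Parp12 (0.17).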

How the data were processed

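Total RNA of 12 BMDM libraries (TruSeq Stranded Total RNA) was quantified by the authors with RSEM 1.3.3, and the deposited table holds expected counts per Ensembl gene without normalization. The reference is given as GRCm39 mm10, a name of 2 builds, so each position is given with its own build (GENCODE M39 on GRCm39 for genes, RefSeq on GRCm38.p6 for promoter windows). Of the values 12.0% were not whole, and expected counts were rounded. In R 4.3.3, edgeR 4.0.16 fitted 1 quasi-likelihood model over 12 libraries to the 15033 genes that passed filterByExpr, with TMM factors and Benjamini-Hochberg adjustment. A gene was called if its adjusted p was 0.05 or less. The SE was approximated as the log2 fold change over the square root of F. Ratios used a prior count of 2. DESeq2 1.42.0, RLE factors, no filter, fewer conditions, a replicate block and leaving out each library were tried. The script was tested on simulated data. Members, gene lists and tests were chosen with earlier results of these data known. All 10 members are named, with the 2 largest rises and falls called in each list, the 2 largest rises and falls within 200 kb and the 3 genes nearest in profile; 1 list is not reported here. The design text speaks of separate mice, but what a replicate number stands for is not given, so p-values measure the spread between these libraries.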

Additional observations from a re-analysis of the deposited data

How the results depend on the processing

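With an added log2 fold change of 1 or more, 7 members passed in each IFNβ comparison, without Parp8 and Zc3hav1, against 7.21% and 7.74% of all genes. In both comparisons 9 members rose with RLE factors, DESeq2, no filter, only the compared conditions or any library left out. With the replicate number as a block, 9 members rose in each as well, and 0 were called in the other comparisons. Same-numbered libraries correlated in their deviations from the condition means by 0.0582 to 0.252 (13 of 18 over 0.1), and 35 of 36 best matches were to the same number. For libraries of different number the range was -0.318 to 0.147 (1 of 36 over 0.1). These values hint at pairing by number. What a number stands for is not given, so the main fit did not take the numbers as pairs. The ratio tests were not repeated with pairs. Over all genes the block raised the calls from 24 to 48 between the IFNβ sources and from 45 to 122 for eGFP supernatant against untreated control.

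Per kb of the longest transcript the highest member reached 29.4 CPM per kb in untreated control, 30.1 in eGFP supernatant, 124 in Ifnb1eGFP supernatant and 118 with rIFNβ, and the lowest 2.08, 2.04, 3.92 and 3.72, since this length is shorter. With IFNβ the ranks then changed from 4 to 3 for Parp9, 3 to 4 for Parp12, 7 to 8 for Parp3, 8 to 9 for Parp1 and 9 to 7 for Parp11, whose level in Ifnb1eGFP supernatant was 24.8 in place of 9.36 CPM per kb, and with rIFNβ Zc3hav1 and Parp10 changed places at ranks 5 and 6. DESeq2 called 1 list gene in eGFP supernatant against untreated control, where edgeR called 0. The log2 ratio of Parp14 to Parp9 ran from 0.21 to 0.30 with a library left out, and the p of 4 of these 12 was 0.06; the cause was not tested.

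Uncalled differences near 0 changed sign in some alternatives and stayed uncalled in all of them. With a library left out, the log2 fold change of Parp1 in the supernatant comparison ran from -0.0887 to 0.0177. For Ifnb1eGFP supernatant against rIFNβ the ranges were -0.0199 to 0.0851 for Parp9, -0.0874 to 0.0412 for Parp11, -0.0188 to 0.05002 for Parp12, -0.0222 to 0.122 for Parp14 and -0.0307 to 0.0827 for Dtx3l. In the comparison of eGFP supernatant with plain medium they were -0.0421 to 0.00777 for Parp1, -0.0723 to 0.0400 for Parp8, -0.0098 to 0.22 for Parp11, -0.0165 to 0.36 for Parp12, -0.0555 to 0.53 for Parp14 and -0.0530 to 0.0953 for Zc3hav1, and with no filter on low counts the values were 0.0065 for Parp1 and 0.0029 for Parp8. The interaction ranged from -0.34 to 0.0332 for Parp12, from -0.46 to 0.12 for Parp14 and from -0.0729 to 0.0754 for Zc3hav1. Several of these ends were set by eGFP supernatant replicate 2; the cause was not tested.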
